A study of Mus musculus with 58 samples.

Results

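The T cell rich and T cell poor liver tumors are 20 of the 29 tumors in a series of 58 arrays, 10 at either end of a ranking. Tumors were ranked by their T cell level, the mean log2 value of Cd3d, Cd3e, Cd3g and Cd8a. The 10 highest were called rich and the 10 lowest poor, and 9 tumors between them entered neither group. The groups were thus selected on measured values of 4 genes, which are described here without a test, and not by any treatment. The ranking was repeated without tumor 9, the array least like the others, and then tumor 1 joined the rich group.

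RNA was measured on Affymetrix whole-transcript mouse arrays in 29 normal livers and 29 liver tumors of adult mice. All mice had received adeno-associated virus (AAV), a gene transfer vector, soon after birth, and there was no uninjected group. Their strain was a mix of the inbred lines 129/Sv, C57BL/6 and FVB/NJ. The titles were read as naming 39 animals, of which 18 gave both a normal liver and a tumor. Normal livers 26 and 27 bear the same animal number with unlike marks, +/- and -/-, and were counted as different animals. Some titles carry a +/- or -/- mark whose gene is not named, and 1 names GFP, while no label used here states the dose, the vector of the other animals or the age at collection. By the titles of the tumor arrays, the rich group held 1 tumor marked +/- and 2 marked -/-, as did the poor group, and the other tumors of both groups bore no mark. Marks can differ between arrays of 1 animal: tumor 19, which is rich, bears none while its normal liver is marked -/-. The titles of tumor 26, which is rich, and tumor 22, which is poor, name the same animal, though only tumor 22 bears a -/- mark. The title of normal liver 28 gives no animal number but shares a leading code with tumors 22 and 26. It was counted as a different animal. Elsewhere such a code is shared by titles with different animal numbers.

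T cells recognise antigen through a receptor whose chains sit in the membrane with the CD3 proteins, which carry the signal into the cell. Cd3d, Cd3e and Cd3g encode CD3 subunits, and Cd8a encodes a chain of the co-receptor of cytotoxic T cells. T cells that carry CD4 read peptides held by MHC class II proteins, which B cells, macrophages and dendritic cells display, whereas CD8 T cells read peptides on MHC class I proteins, which nearly all cells carry. In liver, T cells move through the sinusoids among Kupffer cells, the resident macrophages, and a tumor may hold many or few of them.

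Values are log2 array signals, so a difference of 1 is a doubling, and the level of one gene is not set against that of another. In whole tissue, fewer T cells and less RNA per cell cannot be told apart. Array medians lay between 6.72 and 6.98 in the rich and between 6.75 and 7.05 in the poor tumors. The T cell level correlated with the array median at r = -0.03 over the 29 tumors. Over the 28 tumors without the array least like the others r was -0.31, and over the 29 normal livers it was -0.49. The part of array scale in the results was not tested beyond the comparisons on rescaled arrays given below. The labels give no scan date or other batch. The levels of Xist and Y-linked genes went against the gender label in 2 rich tumors, 1 poor tumor and 4 other arrays. Their part in the results was not tested beyond the comparisons without those tumors given below.

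The T cell level of the rich tumors ran from 6.82 to 10.60 with a median of 7.49, and that of the poor tumors from 6.12 to 6.57 with a median of 6.42. Tumor 9 held the highest level, 10.60, and the next tumor was at 7.82. The limits of the groups fell within a crowded range: tumor 14, the last of the rich group, was at 6.82 and tumor 1, just outside it, at 6.81, while tumor 8, the first of the poor group, was at 6.57 and tumor 29, just outside it, at 6.59. The 29 normal livers had levels from 6.31 to 8.12 with a median of 6.88. All 10 poor tumors lay below that median and 1 lay below the lowest normal liver. Of the rich tumors, 8 of 10 lay above the normal median and 1 above the highest normal liver. The ranking itself sets the poor tumors low and the rich tumors high, so these counts are a description.

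**Figure D1:**
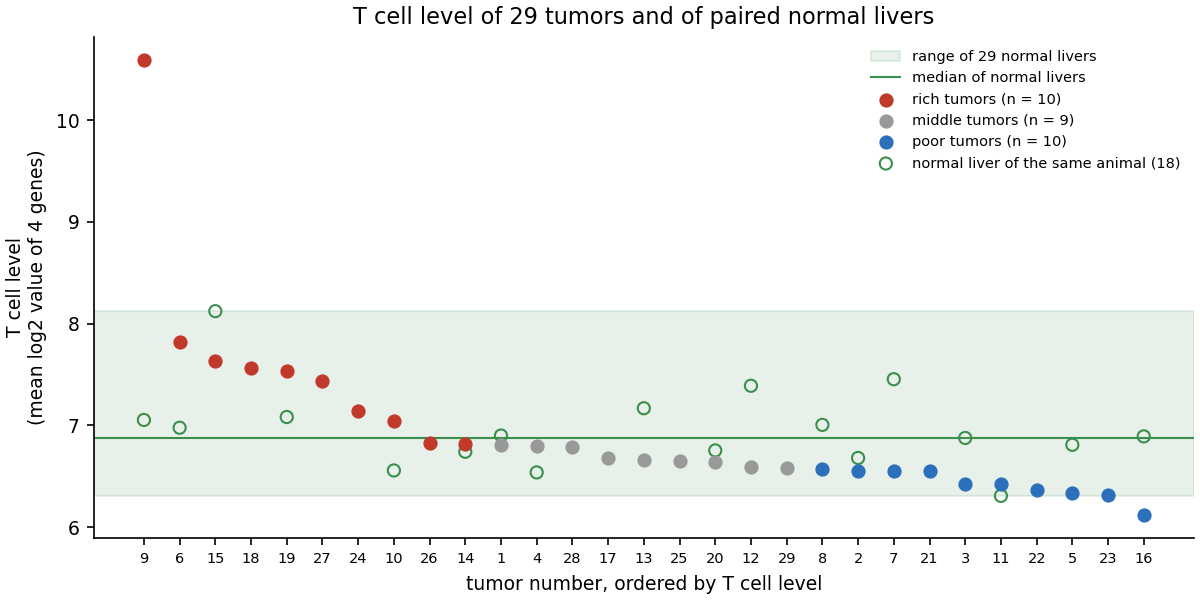
T cell level (mean log2 value of Cd3d, Cd3e, Cd3g and Cd8a) of the 29 tumors in order of that level, with the normal liver of the same animal as open circles for 18 animals. The band spans the 29 normal livers, from 6.31 to 8.12. Only tumor 9, at 10.60, lies above the band, and the poor tumors lie in its lowest part or, in 1 case, below it.

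The 4 genes did not share the ranking equally. Cd3g carried 55.0% of the variance of the level over the 28 tumors other than tumor 9 and Cd3e 30.5%, while Cd8a carried 9.99% and Cd3d 4.49%. Cd3g was at 7.10 to 9.42 (median 8.34) in the rich tumors without tumor 9 and at 5.89 to 7.12 (median 6.31) in the poor tumors, so the groups overlapped only at their edges. Cd3e was at 7.53 to 8.67 (median 8.13) in the rich tumors and at 6.64 to 7.34 (median 7.12) in the poor tumors, with no overlap. Cd8a was at 5.95 to 6.74 in the rich and at 5.84 to 6.34 in the poor tumors. Cd3d spanned 6.32 to 6.47 and 5.95 to 6.38. Both varied little, with an SD over the 28 tumors of 0.25 for Cd8a and 0.16 for Cd3d, and the groups overlapped in both. Over the 28 tumors, which share arrays and tissue, Cd3e and Cd3g correlated with r = 0.93, whereas Cd3d and Cd8a correlated with r = 0.39. The ranking is thus mainly one of Cd3e and Cd3g.

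Tumor 9 stood apart in more than its T cell genes. Cd3g was at 12.26 there and Cd8a at 9.71, against at most 9.42 and 6.74 in any other tumor. All 15 measured genes of B and plasma cells and all 18 pan-leukocyte genes were higher in tumor 9 than in every other tumor. The immunoglobulin gene Ighg3 was at 12.84 and Ms4a1, which encodes the B cell antigen CD20, at 11.88, against at most 10.45 and 9.71 in the others. Of 24 hepatocyte genes, 21 were lower in tumor 9 than in every other tumor. Albumin (Alb) was at 10.47 against 13.29 to 13.83, and Tat, the tyrosine aminotransferase of hepatocytes, was at 6.78 against 12.73 to 13.53. Kupffer cell genes were not high there, with 1 of 12 above every other tumor and 2 below. Over all 22180 genes, 13.6% were above and 12.5% below every other tumor. The RNA of tumor 9 was therefore poor in hepatocyte transcripts and rich in lymphocyte transcripts, T and B alike. How much of it came from tumor tissue was not tested. The comparison of rich and poor tumors was therefore run with and without it, and many values below are given only without it. Its own normal liver had a T cell level of 7.05, within the range of the other normal livers.

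**Figure D2:**
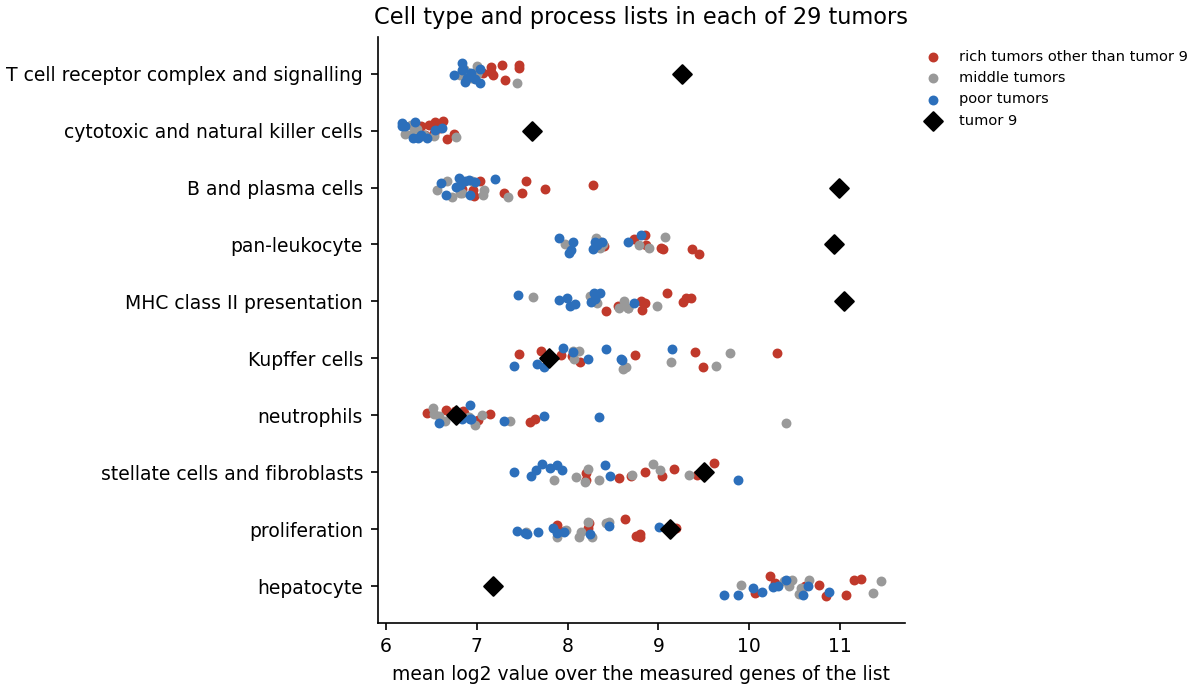
Mean log2 value over the measured genes of 10 lists in each of the 29 tumors, with tumor 9 as a black diamond and the rich, middle and poor tumors in red, grey and blue. Tumor 9 lies above all others for T cell, cytotoxic, B cell, pan-leukocyte and MHC class II genes and below all others for hepatocyte genes, at 7.17 against 9.73 or more.

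Genes that differed between rich and poor tumors were sought with limma over 22176 genes, leaving out the 4 that ranked the arrays, with Benjamini-Hochberg adjustment and a threshold of 0.05. A call here is an association with the T cell level on these arrays, since no treatment set the groups. With tumor 9, 7 genes were higher in the rich tumors (0.0316% of genes tested) and 0 were lower (0%). At an unadjusted p under 0.05, limma gave 1626 higher and 1837 lower genes. Without tumor 9, 59 genes were higher (0.266%) and 3 were lower (0.0135%), and all 7 genes of the first comparison were among the 59. Without tumor 9, 16 of the 59 differed by at least 1 on the log2 scale. The counts depended on the settings. With arrays rescaled by their medians the splits were 82 higher and 23 lower with tumor 9 and 14 and 5 without it, and after quantile normalization 381 and 302, and 490 and 323. Of the 62 genes called in either direction without tumor 9, 13 were still called on rescaled arrays and 42 after quantile normalization. Leaving out tumor 26 before the ranking, so that each animal gave 1 tumor, gave 67 higher with tumor 9 and 151 without. The next tumor then filled the rich group. With the gender label as a covariate, which leaves out the unlabelled poor tumor 23, 0 were higher with tumor 9 and 7 without it. With sex read from Xist and Y-linked genes in its place and tumor 23 kept, 111 and 62 were higher and 27 and 14 lower. Without the tumors that went against that label, 4 and 0 were higher. When each tumor was taken minus the normal liver of its own animal, which leaves 6 rich and 7 poor tumors, limma called 0 genes in either direction with tumor 9 (595 higher and 536 lower at an unadjusted p under 0.05) and 0 without it (350 and 340). The named differences below are therefore calls of one setting. The direction of each of the 62 genes called without tumor 9 was the same under all alternatives in which it was tested, except for Bdh1, at -0.19 when taken minus normal liver.

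MHC class II genes were higher in rich tumors as a list. All 11 measured genes of class II presentation had positive differences, both with tumor 9 (median 0.98) and without it (median 0.73), against a median of -0.03 over all genes tested in both. Of all genes tested, 42.3% had positive differences with tumor 9 and 41.7% without it, the shares beside which the list counts below stand. Taken minus the normal liver of the same animal, all 11 were again positive (medians 0.87 and 0.44) and 0 passed. With tumor 9, 1 of the 11 passed the test, and without it 4 did. H2-Aa, the alpha chain of the I-A molecule, was at 9.67 to 11.20 (median 10.16) in the rich tumors without tumor 9, at 12.02 in tumor 9 and at 6.88 to 9.88 (median 9.02) in the poor tumors. Of the 10 rich tumors, 7 lay above the highest poor tumor. The difference was 1.62 (SE 0.31, limma adjusted p = 0.0297), or 3.08-fold. H2-Ab1, its beta chain, was at 10.54 to 12.22 in the rich and at 7.87 to 10.94 in the poor tumors, a difference of 1.60 (SE 0.30, limma adjusted p = 0.0297). H2-Eb1, the beta chain of I-E, was at 9.75 to 11.13 against 8.24 to 9.78, with 9 of 10 rich tumors above every poor one. Its difference was 1.18 (SE 0.20, limma adjusted p = 0.0165), and with tumor 9 it was 1.35 (limma adjusted p = 0.0293). H2-DMb2, a subunit of the molecule that loads peptides, differed by 1.01 (SE 0.21, limma adjusted p = 0.0386), while its close paralog H2-DMb1 differed by 0.18 (limma adjusted p = 0.400), and probes may not tell the pair apart in full. Ciita, the transactivator of class II genes, was at 8.25 to 9.03 against 7.86 to 8.47, a difference of 0.35 that did not pass (limma adjusted p = 0.116).

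Class II promoters are known for a shared box read by the factor NF-Y, and the 120 bases upstream of called class II genes are shown here. The letters GATTGG, or CCAATC where the box lies on the opposite strand, were searched on both strands and are in capitals. They occurred in the windows of 6 of the 9 class II genes found in the RefSeq promoter table (GRCm38.p6), H2-Aa, H2-Eb1, H2-DMb1, H2-DMb2, H2-Oa and H2-Ob, against 9.67% of all 32851 windows of that length. A gene can have several windows, as H2-DMa does, so genes are set beside windows here. The windows of the called genes are H2-Aa on the minus strand at chr17:34287824-34287943, H2-Eb1 on the plus strand at chr17:34305747-34305866 and H2-DMb2 on the plus strand at chr17:34145129-34145248, while H2-Ab1 is named only.
H2-Aa: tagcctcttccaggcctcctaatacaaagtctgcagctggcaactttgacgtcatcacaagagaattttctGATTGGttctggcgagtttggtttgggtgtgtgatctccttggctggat
H2-Eb1: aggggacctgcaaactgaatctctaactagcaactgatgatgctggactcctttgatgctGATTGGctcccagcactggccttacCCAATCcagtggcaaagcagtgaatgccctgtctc
H2-DMb2: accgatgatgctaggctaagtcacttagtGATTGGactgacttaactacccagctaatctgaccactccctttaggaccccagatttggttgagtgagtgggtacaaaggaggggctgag
The box starts 49 bases before the start of H2-Aa, 60 and 35 bases before that of H2-Eb1 and 91 bases before that of H2-DMb2. H2-DMb1, H2-Oa and H2-Ob hold it too without having been called, so the box does not set the called genes apart.

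**Figure D3:**
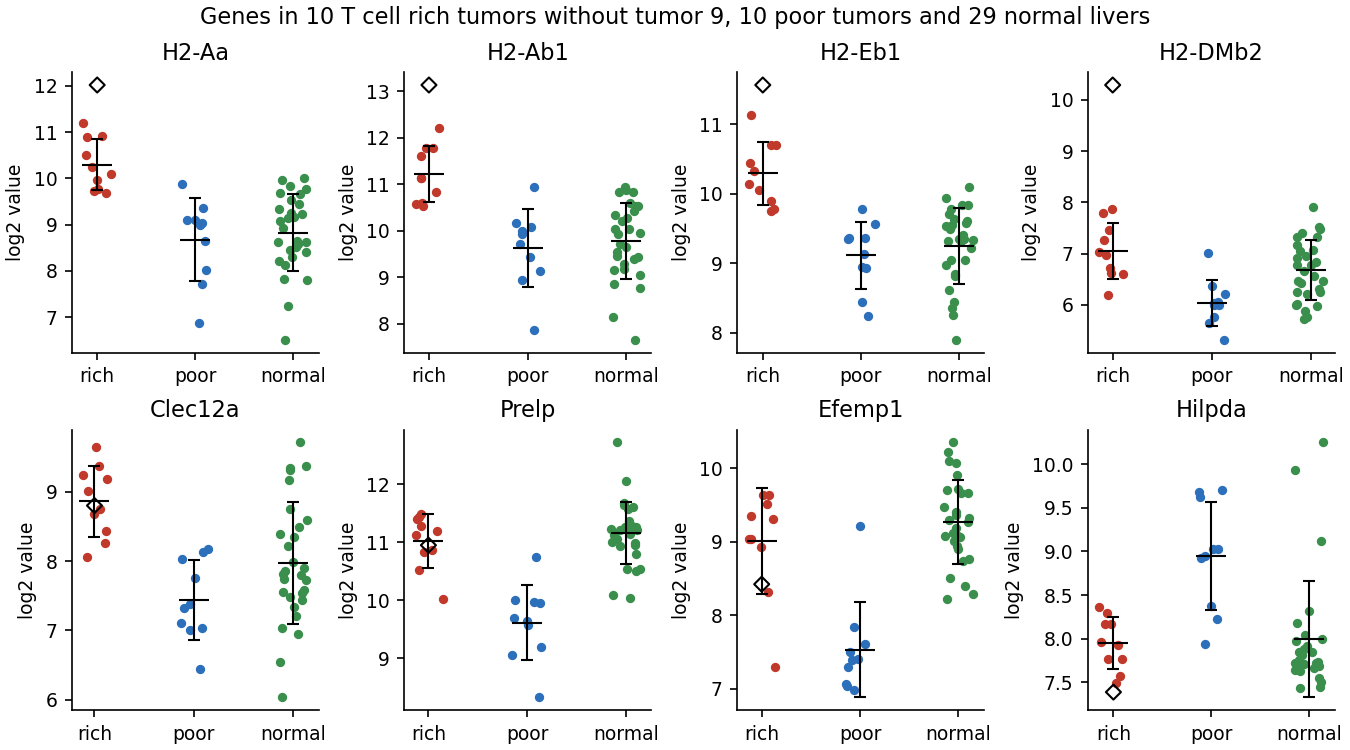
Log2 values of 8 genes in 10 rich tumors without tumor 9 (red), 10 poor tumors (blue) and 29 normal livers (green), with the mean ± SD and tumor 9 as an open diamond. The class II genes are higher in the rich than in the poor tumors, Prelp and Efemp1 in the poor tumors lie mostly below normal liver, and Hilpda lies higher in the poor tumors.

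Genes known from myeloid cells and B cells were also among the 59, and were put together here after their values were seen. Clec12a, an inhibitory lectin of myeloid cells, had the smallest adjusted p with tumor 9. It was at 8.05 to 9.64 (median 8.87) in the rich tumors without tumor 9, at 8.80 in tumor 9 and at 6.44 to 8.18 (median 7.35) in the poor tumors. The value of tumor 9 thus lay among those of the other rich tumors, unlike its T cell values. The difference was 1.42 (SE 0.23, limma adjusted p = 0.0150) without tumor 9 and 1.48 (limma adjusted p = 0.0258) with it. Aif1, a macrophage protein, was at 7.44 to 8.61 against 6.94 to 7.70 (difference 0.73, limma adjusted p = 0.0297). Cd180, a receptor of B cells and myeloid cells, was at 7.07 to 9.05 against 5.70 to 7.82 (difference 1.35, SE 0.27, limma adjusted p = 0.0371). Pld4, known from dendritic cells, differed by 1.24, Kctd12 by 1.23, the Toll-like receptor Tlr12 by 0.97 and the leukocyte myosin Myo1f by 0.86, and all 4 passed. Marker lists of macrophages gave a mixed picture. Of 12 Kupffer cell genes 9 were higher in the rich tumors without tumor 9 (median 0.55) and 0 passed. The Kupffer lectin receptor gene Clec4f ran from 6.88 to 11.15 in the rich and from 6.97 to 9.04 in the poor tumors, and Marco differed by -0.06. Of 21 genes of recruited macrophages and monocytes 15 were higher (median 0.38) and 6 were lower, and 0 passed, with Ly6c2 at 1.25, Adgre1 at 1.07 and Chil3, the lowest, at -0.73. Neutrophil genes gave no stable direction. Of 14, 2 were higher (median -0.14) and 0 passed, but with tumors ranked by z-scores 12 of 14 were higher (median 0.35), and all 14 were higher when tumors were taken minus their own normal liver (median 0.27). S100a8 and S100a9, both abundant in neutrophils, differed by -0.06 and -0.07.

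Genes of connective tissue, likewise put together after their values were seen, were called as well. Prelp, a small leucine-rich matrix protein, was at 10.02 to 11.48 (median 11.16) in the rich tumors without tumor 9, at 10.95 in tumor 9 and at 8.32 to 10.73 (median 9.67) in the poor tumors. Normal livers were at 10.04 to 12.72 (median 11.21), so the rich tumors lay near normal liver and the poor tumors mostly below it. The difference was 1.40 (SE 0.24, limma adjusted p = 0.0165) without tumor 9 and 1.36 (limma adjusted p = 0.0402) with it. Efemp1, an elastic fibre protein, was at 7.30 to 9.63 (median 9.18) against 6.98 to 9.22 (median 7.40), and its normal median was 9.27. Its groups overlapped in their whole lower range, with 5 of 10 rich tumors above the highest poor tumor and a difference of 1.47 (SE 0.28, limma adjusted p = 0.0297). The matrix genes Dpt, Igfbp7, Abi3bp and Tnxb, the integrin gene Itga8 and Tcf21, a factor of mesenchymal cells, differed by 1.48, 1.17, 0.86, 0.51, 0.96 and 0.79, and all passed. These genes were called over all genes and are not on the stellate cell list. Of the 20 measured genes on that list of stellate cells and fibroblasts, the matrix-forming cells of the liver, all were higher in rich tumors with tumor 9 (median 0.89) and without it (median 0.74), and 0 passed in either. Col1a1, a collagen chain, differed by 1.19 (SE 0.45, limma adjusted p = 0.242) with no rich tumor above the highest poor one, and Lum, a matrix proteoglycan, by 1.43 (SE 0.36, limma adjusted p = 0.0806). Tumor 7 bears on this: it is T cell poor, but its mean over the list was 9.87, above every other tumor, while the other poor tumors lay between 7.41 and 8.46.

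**Figure D4:**
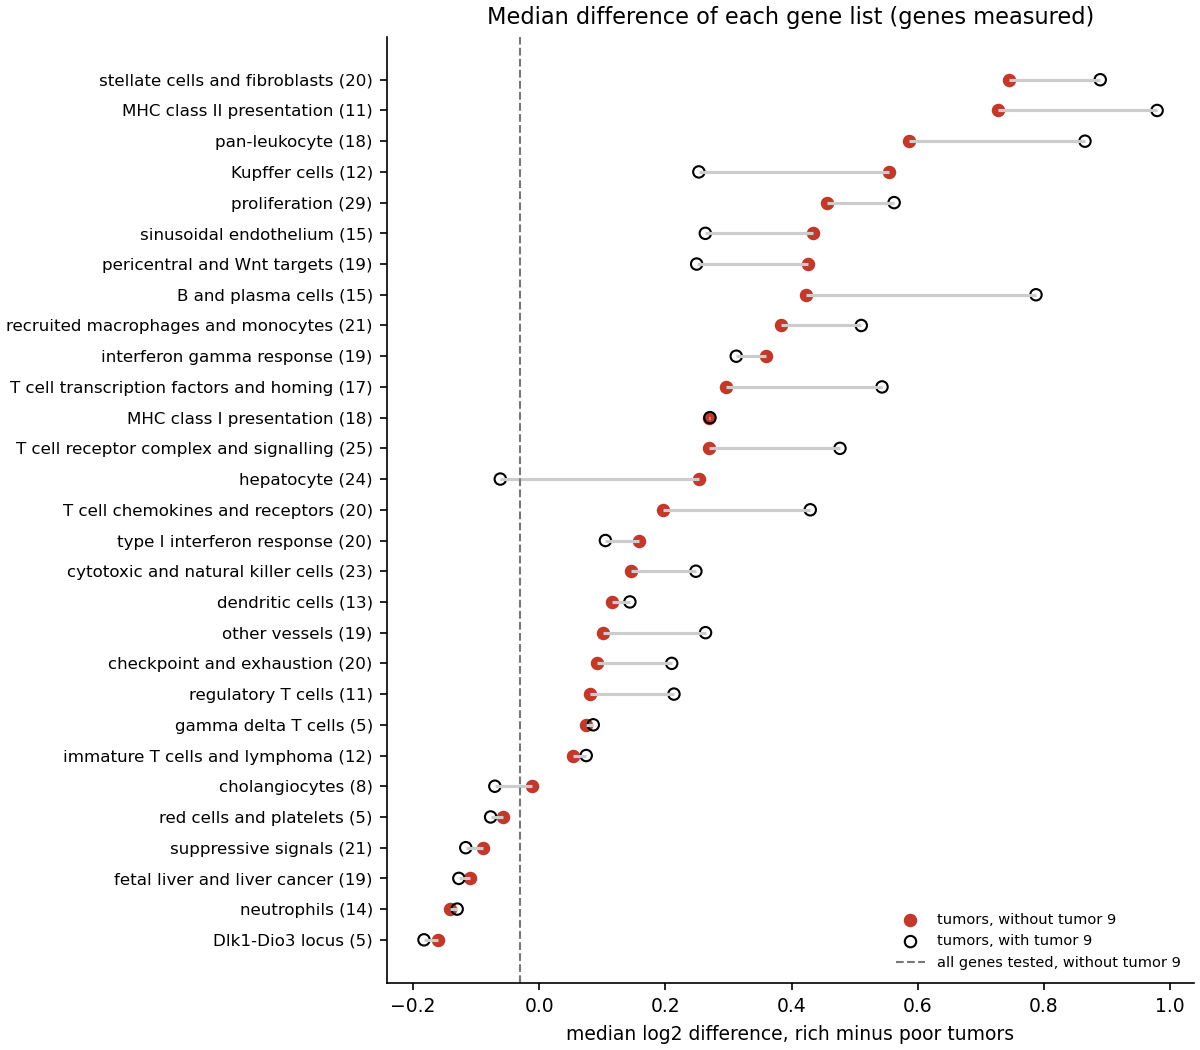
Median log2 difference between rich and poor tumors over the measured genes of 29 lists, without tumor 9 (filled) and with it (open), with the number of genes in brackets and the median of all genes without tumor 9, -0.03, as a dashed line. Stellate cell and MHC class II genes lead at 0.74 and 0.73 without tumor 9, and the hepatocyte list moves from -0.06 to 0.25 when tumor 9 is left out.

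Genes of T cells themselves mostly had the sign of the ranking. They were part of the fit over all genes, but since they come from the same cells as the 4 ranking genes they are given with no p. Of 25 measured genes of the T cell receptor complex and its signalling, 25 were higher in rich tumors with tumor 9 (median 0.48) and 24 without it (median 0.27). Trav9d-3, a variable segment of the receptor alpha chain, was at 8.33 to 10.20 in the rich tumors without tumor 9 and at 7.31 to 8.12 in the poor tumors, with no overlap, and reached 12.52 in tumor 9. Cd4 was at 6.49 to 8.17 against 6.23 to 7.40 and Cd8b1, the other CD8 chain, at 7.55 to 8.92 against 7.37 to 7.72. The groups overlapped in both. Of the 59 called genes, 8 were on the T cell or leukocyte lists (Trav9d-3, Cd52, Cd48, Dock2, Selplg, Rasgrp1, Nkg7 and Cxcr6), which hold 141 of all 22176 genes tested. The ranking itself favours such genes. Slamf6, Ly9, Stat4, Sash3, Map4k1, Tespa1, Acap1, Dgka and Dock8, known from lymphocytes though on no list, were among the rest. Dock8, which moves the actin skeleton of immune cells, was at 9.10 to 10.12 against 7.82 to 9.08, with no overlap. Of 23 genes of cytotoxic and natural killer cells, 20 were higher both with tumor 9 (median 0.25) and without it (median 0.15), and 1, Nkg7, was called, without tumor 9. Gzmb and Prf1, which encode a granule protease and perforin, differed by 0.36 and 0.0047 without tumor 9, and Ifng by -0.02. Foxp3 of regulatory T cells differed by 0.08, and the checkpoint genes Pdcd1, Ctla4 and Lag3 by 0.08, -0.03 and 0.24. Over the 28 tumors other than tumor 9 the genes whose values ran most like the T cell level were Trav9d-3, Aif1, Sash3, Cd48 and Cnp, with r = 0.88, 0.88, 0.87, 0.87 and 0.86, and the lowest was Fam71f2 at r = -0.74. These r describe 28 arrays that share tissue and ranking.

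Signals that draw or follow T cells were uneven. Cxcl9, a chemokine induced by interferon gamma, was at 10.92 to 12.55 in the rich tumors without tumor 9 and at 9.29 to 11.75 in the poor tumors (difference 0.95, SE 0.28, limma adjusted p = 0.131). Cxcl10, a chemokine for the same receptor, was at 6.90 to 10.34 against 8.86 to 11.11 (difference -0.62, limma adjusted p = 0.447). The pair thus had differences of opposite sign, neither of which passed. Of 19 genes of the interferon gamma response, 15 were higher without tumor 9 (median 0.36) and 0 passed. Of 20 genes of the type I interferon response, 13 were higher (median 0.16) and 0 passed, and ranked by z-scores 8 were (median -0.02). Taken minus the normal liver of the same animal, 3 of the 20 were higher without tumor 9 (median -0.15) and 3 with it (median -0.23). All 18 measured genes of MHC class I presentation were higher in the rich tumors, by a median of 0.27 with or without tumor 9, and 0 passed. With tumor 9 and taken minus the normal liver of the same animal, 12 of the 18 were higher (median 0.05). H2-K1, a class I heavy chain, was at 11.83 to 12.51 against 11.73 to 12.43, an overlap of nearly the whole range. Cd274, which encodes the checkpoint ligand PD-L1, was at 7.71 to 9.53 against 7.79 to 9.59 (difference -0.07, limma adjusted p = 0.902).

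All 15 measured genes of B and plasma cells were higher in rich tumors with it (median 0.79) and 13 without it (median 0.42), and 0 passed in either. Jchain, which joins secreted immunoglobulins, was at 5.51 to 10.73 (median 7.26) in the rich tumors without tumor 9 and at 5.41 to 8.81 (median 5.70) in the poor tumors, a difference of 1.69 (SE 0.62, limma adjusted p = 0.221). Proliferation genes were higher in rich tumors for 28 of 29 members in both comparisons (medians 0.56 and 0.46) and 0 passed. Mki67, a marker of dividing cells, was at 8.55 to 10.50 against 7.36 to 10.02, so the groups shared most of their range (difference 0.89, SE 0.32, limma adjusted p = 0.207). Which cells divided cannot be told from whole tissue.

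Hepatocyte genes depended on tumor 9. With it 11 of 24 were higher in the rich tumors (median -0.06) and without it 20 of 24 (median 0.25), and 0 passed. Slco1b2, a bile acid and drug transporter, was at 6.84 to 12.09 in the rich tumors without tumor 9 and at 5.29 to 9.17 in the poor tumors (difference 2.07, SE 0.75, limma adjusted p = 0.216). Genes of liver metabolism on no list were called without tumor 9: Gamt, which makes creatine, was at 9.28 to 10.73 against 7.26 to 9.91 (difference 1.39, SE 0.30, limma adjusted p = 0.0497), and Proz and Bdh1, a plasma protein and a ketone body enzyme, differed by 1.01 and 0.78. All 3 were low in tumor 9, at 7.49, 8.01 and 7.23, and with tumor 9 they did not pass (limma adjusted p = 0.197, 0.322 and 0.346).

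The 3 genes lower in the rich tumors without tumor 9 were Hilpda, Olfr918 and Mir1a-1hg. Hilpda, which encodes a lipid droplet protein known to be induced by low oxygen, was at 7.49 to 8.37 (median 7.95) in the rich tumors, at 7.39 in tumor 9 and at 7.94 to 9.70 (median 8.99) in the poor tumors. Normal livers had a median of 7.82, so the poor tumors were the ones that stood higher. The difference was -0.998 (SE 0.20, limma adjusted p = 0.0386) without tumor 9 and -1.01 (limma adjusted p = 0.0663) with it. The olfactory receptor gene Olfr918 and Mir1a-1hg differed by -0.30 and -0.27. Afp, a fetal liver protein made by many liver cancers, ran from 6.91 to 11.56 in the rich tumors without tumor 9 and from 7.36 to 12.69 in the poor tumors (difference -0.46, limma adjusted p = 0.764). Rian, a long RNA of the Dlk1-Dio3 locus in which AAV insertions are known from mouse liver tumors, was at 6.53 to 12.16 against 6.18 to 12.16 (difference 1.01, SE 0.96, limma adjusted p = 0.642). Both groups held tumors with low and with high Rian.

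Tumors 26 and 22 allow a look within 1 animal by title, with 1 array each and hence no test. Only tumor 22 bears a -/- mark. The mean of the Y-linked genes lay 0.67 above Xist in tumor 26 and 3.18 above it in tumor 22, and the reason was not tested. Their T cell levels were 6.83, just inside the rich group, and 6.36, below the median of the poor group. In tumor 26, 23 of 25 T cell receptor genes, 10 of 11 class II genes and 19 of 20 stellate cell and fibroblast genes were higher than in tumor 22. H2-Eb1 was at 10.32 against 9.35 and Col1a1 at 10.15 against 8.36. The type I interferon response went the other way, with 0 of 20 genes higher in tumor 26 and a median difference of -0.89. Mx1, an antiviral protein gene of that response, was at 7.74 against 9.74. Over all genes 11806 of 22176 were higher in tumor 26.

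Normal livers took no part in the ranking and give the same measure in other samples. Gene values were regressed with limma on the T cell level of the 29 normal livers, and 50 genes had a positive slope (0.225%) and 10 a negative slope (0.0451%) at an adjusted p under 0.05. These counts rested on normal liver 15, whose T cell level of 8.12 was the highest: without it 2 genes had a positive slope and 0 a negative one. Of the 59 genes higher in rich tumors without tumor 9, 58 had a positive slope in normal liver (98.3%), against 45.5% of all genes tested. Among the 51 of them on no T cell or leukocyte list, 50 did (98.0%). Without normal liver 15 these counts were again 58 of 59 and 50 of 51, against 45.8% of all genes. The 51 still hold genes known from lymphocytes, such as Slamf6, Ly9, Stat4 and Sash3, and the list was written after values were seen. Of the normal livers, 13 came from animals of rich or poor tumors. The genes were also picked for following the T cell level in tumors, so these counts are a description and no independent support. The shared calls were fewer: 8 genes were called in both, 13.6% of the tumor list and 16% of the normal list (Abcg3, Aif1, Cd180, Clec12a, Cxcr6, Nkg7, Sash3 and Trav9d-3), where 0.225% of all genes were called in normal liver. Without normal liver 15 only Trav9d-3 of the 59 was called, with a slope of 1.41. Trav9d-3, Cxcr6 and Nkg7 are on the T cell or leukocyte lists. They come from the same cells as the ranking genes, so their positive slopes are favoured in advance. Clec12a had a slope of 1.68 per unit of T cell level (SE 0.33, limma adjusted p = 0.0168) and Cd180 one of 1.42 (SE 0.21, limma adjusted p = 0.000901). Without normal liver 15 their slopes were 1.86 (limma adjusted p = 0.264) and 1.52 (limma adjusted p = 0.0583). The class II genes were positive in normal liver as well, 11 of 11 with a median slope of 0.74, and 0 passed. H2-Aa had a slope of 1.17 (SE 0.37, limma adjusted p = 0.143). Of the 20 genes of stellate cells and fibroblasts, 17 had a positive slope (median 0.30) and 0 passed. Of the matrix genes called between the tumors, Igfbp7 had a slope of 0.60 (SE 0.31), Efemp1 one of 0.53 (SE 0.28), Prelp one of 0.38 (SE 0.27) and Dpt one of 0.16 (SE 0.33), and none of the 4 passed (limma adjusted p = 0.297, 0.295, 0.435 and 0.797). The neutrophil genes were positive as well, 14 of 14 with a median slope of 0.40. Whether slopes in normal liver and differences between tumors are unlike was not tested.

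**Figure D5:**
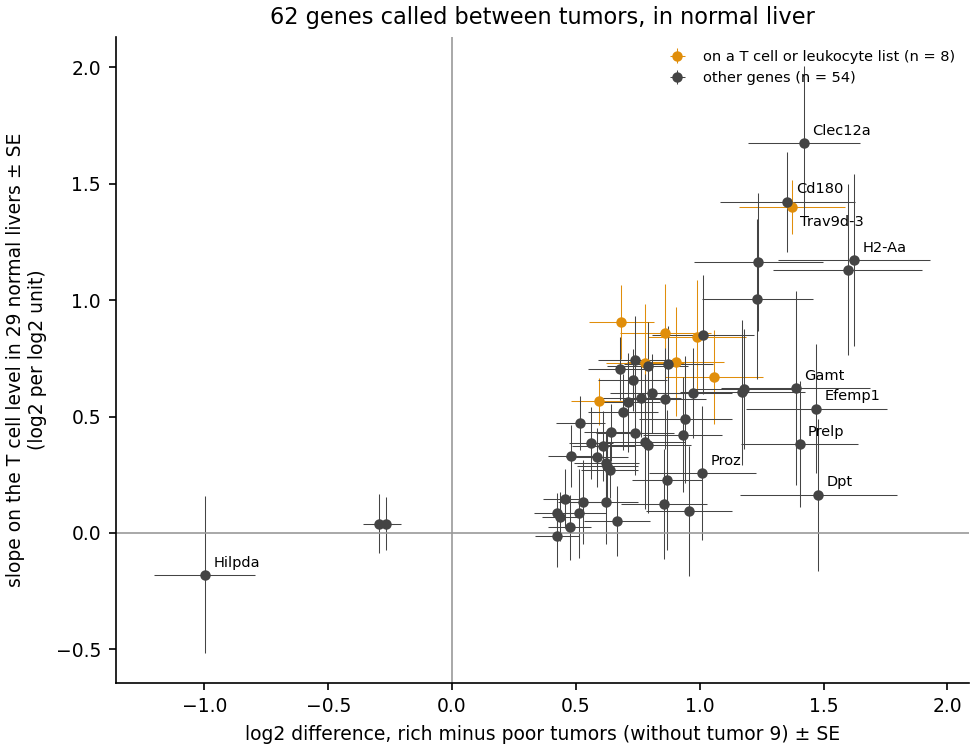
Log2 difference between rich and poor tumors without tumor 9 (x axis) and slope on the T cell level over 29 normal livers (y axis), both ± SE, for the 62 genes called between the tumors, with genes on T cell or leukocyte lists in orange. Of the 59 genes to the right of 0, 58 lie above 0 on the y axis, with Clec12a at 1.68 and Dpt at 0.16.

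The T cell level of a tumor was compared with that of the normal liver of the same animal in the 18 animals that gave both. Pearson's r was 0.22 (permutation p = 0.301) and Spearman's rho 0.26 (permutation p = 0.293), two-sided. Without the 2 animals farthest from the median tumor level, r was 0.46 (permutation p = 0.0781), and without the animal of tumor 9 it was 0.38 (permutation p = 0.129). Spearman's rho was lower there than over all 18 animals, at 0.17 (permutation p = 0.519) and 0.21 (permutation p = 0.414). The tumor was higher than its normal liver in 7 of 18 animals, in 5 of the 6 rich tumors with a normal liver and in 1 of the 7 poor ones, counts that the ranking itself favours. The normal livers of animals with rich tumors had a level of 7.09 ± 0.55 (SD, n = 6) and those of animals with poor tumors 6.86 ± 0.35 (SD, n = 7). The difference of 0.23 was within the spread (exact permutation test over 1716 splits, two-sided p = 0.417). Of the labels, 4 rich tumors were from females and 6 from males, and 2 poor tumors from females and 7 from males, with 1 unlabelled (two-sided Fisher's exact test, p = 0.628). By Xist and Y-linked genes, 6 rich tumors were female and 4 male, and 2 poor tumors were female and 8 male (two-sided Fisher's exact test, p = 0.170), and without tumor 9 the rich group held 7 and 3 (p = 0.0698). By the animal numbers in the titles, a normal liver was measured for 6 rich and 7 poor tumors (two-sided Fisher's exact test, p = 1). Adjusted over the 4 tests on the labels and levels as given by Benjamini-Hochberg, the p-values for the correlation, the normal livers, the sex label and the paired array were 0.833, 0.833, 0.838 and 1. No difference in the normal liver or in the labels between animals with T cell rich and T cell poor tumors was thus resolved with these numbers of animals.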

How the data were processed

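Arrays of 29 normal livers and 29 liver tumors were used as deposited: log2 values per transcript cluster. Per the submitters' processing notes, the authors made them in Affymetrix Expression Console, whose algorithm and version no source used here names, so background, detection and scan date could not be examined. Precision is limited by the number of arrays. Of 41345 clusters, 23521 had 1 gene symbol in the platform annotation. The cluster with the highest mean was kept per gene, giving 22180 genes, and 4 ranking genes were then left out.

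The ranked tumors, the lists and the tests were chosen with earlier results of these data known, and the list of genes counted as T cell or leukocyte genes was written after values were seen. Genes were tested with lmFit and eBayes with a trend in limma 3.58.1 (R 4.3.3), tested on simulated data, with Benjamini-Hochberg adjustment. Levels were compared by permutation (100000 resamples, or all splits) with scipy 1.17.1. Arrays of different animals were treated as replicates. Tumors 22 and 26 share an animal, read from the titles. Named genes are the 4 ranking genes, up to 3 list members of smallest p and the one of largest difference per list, the 10 largest called differences each way, the genes most and least correlated with the level, a fixed set of immune genes, and other called or list genes chosen after their values were seen. Promoter windows are from RefSeq (GRCm38.p6). Alternatives were scaling, dim genes, array weights, the gender label, the ranking, left-out arrays, sex by Xist and Y-linked genes and tumors minus their own normal liver.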

Additional observations from a re-analysis of the deposited data

Results flagged for a closer look

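In 24 of the 155 group values examined, the highest or lowest sample lay apart from the rest of its group by more than Dixon's critical ratio. Chance gives about 1 in 20 groups, a rate that need not hold for lists that move with the ranking. The T cell level and the 4 ranking genes were not examined in the tumor groups, which the ranking itself formed. Tumor 9 accounted for 12 of the 24 in the rich group. The means over lists were high in tumor 9 for T cell receptor genes (9.26), T cell factors and homing genes (9.86), gamma delta T cells (7.72), cytotoxic and natural killer cells (7.60), regulatory T cells (7.77), MHC class II presentation (11.04), B and plasma cells (10.98), dendritic cells (8.41) and pan-leukocyte genes (10.94). They were low for the type I interferon response (8.60), hepatocyte genes (7.17) and suppressive signals (7.96).

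Among the poor tumors, tumor 7 stood apart with a stellate cell and fibroblast mean of 9.87, the next being 8.46. Among the rich tumors without tumor 9, tumor 15 was high for gamma delta T cells (6.99), tumor 27 for the interferon gamma response (9.60) and tumor 10 for genes of immature T cells and lymphoma (8.12).

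Of the normal livers of animals with rich tumors, normal liver 15 had a T cell level of 8.12 against 7.08 for the next. Of those of animals with poor tumors, normal liver 7 was high for B and plasma cells (8.25) and for red cells and platelets (7.89). Normal liver 16 was high for fetal liver genes (7.98), other vessels (9.16), stellate cells and fibroblasts (9.97), cholangiocytes (8.87) and suppressive signals (9.76), and its tumor had the lowest T cell level of all.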

How the results depend on the processing

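The correlation with normal liver, the comparison of normal livers, the sex label and the paired array kept their direction, where they have one, and their side of the threshold under every alternative run. Of the 62 called genes Bdh1 turned, to -0.19, with tumors taken minus their own normal liver. Of 29 list medians, 11 changed sign in at least 1 of 12 alternatives with tumor 9 and 9 without it, the neutrophil, type I interferon, hepatocyte and fetal liver lists among them. Without tumor 9 the fetal liver median went from -0.11 to 0.17 after quantile normalization, and with tumor 9 the hepatocyte median went from -0.06 to 0.16 with array weights. The counts of called genes did not keep their size. With tumor 9 (7 higher and 0 lower), they were 82 and 23 with arrays centred on their medians, 381 and 302 after quantile normalization, 39 and 3 for brighter genes only, 42 and 3 with array weights, 0 and 0 with the gender label, 67 and 9 with 1 tumor per animal, 4 and 1 ranked by z-scores, 504 and 289 ranked without Cd8a, and 2226 and 1248 with the level as a number. Without tumor 9 (59 and 3), the same alternatives gave 14 and 5, 490 and 323, 98 and 6, 85 and 9, 7 and 0, 151 and 10, 21 and 1, 612 and 206, and 647 and 127. Of the alternatives chosen after seeing the data, a ranking by Cd3e and Cd3g gave the same groups as that without Cd8a and hence again 504 and 289, or 612 and 206 without tumor 9. Leaving out tumors against the gender label before the ranking, with other tumors filling the groups, gave 4 and 0, or 0 and 0. Sex by Xist and Y-linked genes as a covariate gave 111 and 27, or 62 and 14, and tumors minus their own normal liver gave 0 and 0 in both. In normal liver (50 and 10), centring gave 80 and 23, brighter genes only 34 and 1, array weights 2296 and 1580, and leaving out normal liver 15 gave 2 and 0. Centring changed 1 rich and 2 poor members of the groups, quantile normalization 1 and 3 and the ranking without Cd8a 1 and 2 with tumor 9. The fit with the gender label left out tumor 23, which bears none. What else set the counts was not tested. Of the 62 genes called without tumor 9, H2-Eb1, Clec12a, Dock8 and Trav9d-3 were called in 9 of 12 distinct alternatives, H2-Aa in 8, Prelp and Hilpda in 7, Efemp1 in 6, Gamt and Proz in 5, Bdh1 in 4 and Ripply3 in 3, and Olfr918 in 3 of 11. No detection limit is given for the arrays, and 10 arrays a group limit what can be called. Rich tumors could not be paired with poor tumors, because a rich and a poor tumor share an animal in 1 case only. The animal entered through the correlation with normal liver and the comparison of tumors minus their own normal liver.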

Other observations

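In the 6 lists that follow, 0 members passed in either comparison of rich and poor tumors. Of all genes tested, 41.7% were higher in the rich tumors without tumor 9. Of 15 genes of the sinusoidal endothelium, 14 were higher in rich tumors without tumor 9 (median 0.43), with the lectin gene Clec4g at 0.84 and Lyve1 at -0.33. Of 19 pericentral genes and Wnt targets, 15 were higher (median 0.43). Glul, glutamine synthetase of pericentral hepatocytes, was at 9.49 to 12.46 in rich tumors without tumor 9 and at 8.96 to 12.13 in poor tumors, so the groups shared nearly their whole range. Of 8 cholangiocyte genes 4 were higher (median -0.01), and of 19 fetal liver and liver cancer genes 7 (median -0.11), or 12 (median 0.17) after quantile normalization. Of 21 genes of suppressive signals 8 were higher (median -0.09). In that list Arg1, the arginase of hepatocytes and some macrophages, was at 6.71 in tumor 9 against 11.84 to 13.08 in all other tumors, and Tgfb1 differed by 0.42 without tumor 9 (limma adjusted p = 0.298). Of 5 genes of red cells and platelets, 0 were higher (median -0.06).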
